A study of Homo sapiens with 9 samples.

Results

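IGF2BP2 and LIN28B were compared as mRNA-binding proteins in K562 cells, a human leukaemia line with erythroid features. The data come from antibody-barcode eCLIP (ABC), a crosslinking assay in which barcoded antibodies mark the RNA fragments of their own protein, so that several proteins can be read from a single lysate. In 3 of the 9 samples of the series, K562 cells were crosslinked with ultraviolet light and precipitated with the same 10 antibodies, and the IGF2BP2 and LIN28B libraries of each sample were set against each other as a pair. The cells carried no engineered allele and no treatment was named. The labels give the samples as replicates 1, 2 and 3, do not say whether they came from separate cultures, and call the third K563 in 1 field and K562 in the title. The p-values therefore measure the spread between these 3 samples, which may be technical. A peak was taken as enriched with P below 0.001 and more than 8-fold over the external background given by the authors, and it was placed by its centre on the reference transcript of a protein-coding gene. This left 4430, 7808 and 9027 enriched mRNA peaks of IGF2BP2 and 4449, 6585 and 5321 of LIN28B in replicates 1, 2 and 3.

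IGF2BP2 belongs to a family of cytoplasmic RNA-binding proteins with KH domains that bind CA-rich elements and are known for stabilising mRNAs and guiding their transport. LIN28B binds RNA with a cold-shock domain and zinc knuckles, is known for blocking the maturation of let-7 microRNAs through a GGAG element, and also binds many mRNAs. Genes of both families are oncofetal and are themselves let-7 targets.

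The merged peaks held 148563 to 494064 reads per library, of which 80100 to 308910 lay in peaks on mRNA exons. The external background had at most 1 read at 98.2% to 98.7% of the peaks, so the fold followed the read number of a peak and did not correct for the abundance of its mRNA. The lowest read number of an enriched peak was 6, 7 and 9 for IGF2BP2 and 5, 6 and 5 for LIN28B. Of 12 erythroid markers listed for K562 cells, 10 held enriched peaks of either protein in at least 2 samples, among them the globins HBE1 and HBG1 and the transcription factor TAL1, and 2 (KLF1 and EPOR) did not.

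The strongest sites show the sequences the comparison turns on. For each protein and region, the 3 sites enriched in all 3 samples with the highest mean fold are printed as 29 bases of the mRNA strand around the peak's centre (GRCh38, GENCODE release 44), at most 1 per gene. Capitals mark CAT followed by A, C or T and the motif CACA at IGF2BP2 sites, and at LIN28B sites the let-7 element GGAG, the purine motif GAAG, and GNGAT with its variant GNGAC. IGF2BP2 had 707 such sites in the CDS and 1426 in the 3′ UTR, and LIN28B had 1438 and 539.
IGF2BP2, 3′ UTR of HMGA1, exon 6 of 6, chr6:34245888-34245916, plus strand: ttcgaCATCcgtCATTgctgctgctacca
IGF2BP2, 3′ UTR of RAB7A, exon 6 of 6, chr3:128813596-128813624, plus strand: CACACAcgCACACACACACACACAgatct
IGF2BP2, 3′ UTR of LDHA, exon 8 of 8, chr11:18407530-18407558, plus strand: tgacgcaccactgccaatgctgtacgtac
IGF2BP2, CDS of FTL, exon 4 of 4, chr19:48966660-48966688, plus strand: cctcCACAggctgggtggcccggaggctg
IGF2BP2, CDS of ARID1A, exon 3 of 20, chr1:26731327-26731355, plus strand: CACAgctccagtcctctcagcctcCATAc
IGF2BP2, CDS of ALDOA, exon 3 of 10, chr16:30067279-30067307, plus strand: accccggagcagaagaaggagctgtctga
LIN28B, CDS of RPL18, exon 4 of 7, chr19:48616792-48616820, minus strand: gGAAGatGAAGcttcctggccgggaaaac
LIN28B, CDS of EIF4G1, exon 18 of 33, chr3:184324905-184324933, plus strand: gagctgGAAGaggctcGGGACatagcccg
LIN28B, CDS of ENO1, exon 9 of 12, chr1:8864029-8864057, minus strand: tggGGAGcttggcaGAAGttcacagccag
LIN28B, 3′ UTR of STIM1, exon 13 of 13, chr11:4091889-4091917, plus strand: agagtggggcatggGAAGggctggtccag
LIN28B, 3′ UTR of TRIM25, exon 9 of 9, chr17:56891422-56891450, minus strand: tggaaatctccaggctgctgggcagctgg
LIN28B, 3′ UTR of IQGAP1, exon 38 of 38, chr15:90500869-90500897, plus strand: tgcacaGAGATtgacttgattcagagaga

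The HMGA1 site, 1017 nt past the stop codon, had 331, 1014 and 1023 IGF2BP2 reads in replicates 1, 2 and 3, and no LIN28B peak touched it in any sample. The RPL18 site, at 38.1% of the CDS length, had 1089, 1078 and 741 LIN28B reads, against 13, 11 and 25 of IGF2BP2. The ARID1A and TRIM25 sites likewise had no peak of the other protein. Other sites were occupied by both, since the ALDOA site chosen for IGF2BP2, with 60, 78 and 91 reads, had 88, 116 and 101 LIN28B reads, and its window held GGAG and GAAG but none of the motifs marked for IGF2BP2. The LDHA and TRIM25 windows held none of the motifs marked for the protein they were chosen for.

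IGF2BP2 peaks lay mostly in 3′ UTRs and LIN28B peaks mostly in coding sequence. The 3′ UTR held 57.4%, 62.6% and 63.9% of the IGF2BP2 peaks in replicates 1, 2 and 3, and 24.3%, 26.7% and 27.2% of the LIN28B peaks. The CDS held 38.4%, 34.1% and 32.7% of the IGF2BP2 peaks and 69.4%, 67.5% and 68.1% of the LIN28B peaks. The ranges did not overlap, and the difference, IGF2BP2 minus LIN28B, was 35.2 percentage points ± 1.88 (SD, n = 3) for the 3′ UTR and -33.3 ± 2.27 for the CDS. The 5′ UTR held 3.64% ± 0.452 and 5.61% ± 0.823 of the peaks, with LIN28B above IGF2BP2 in each sample. With 3 pairs, the exact two-sided sign-flip test cannot give a p below 0.25, and it gave 0.25 for each of these differences. Among the other 8 antibodies of the same samples, the 3′ UTR share ran from 4.05% to 5.12% for the splicing factor PRPF8 to 84.5% to 87.9% for FAM120A, so both proteins lay inside the range of the set. Neither split was particular to its protein. The CDS share was 64.6% to 73.1% for RBFOX2, 75.8% to 81.2% for SF3B4 and 87.7% to 90.3% for PRPF8. DDX3, EIF3G, FAM120A, PUM2 and ZC3H11A had at most 61.1%. The 3′ UTR share of PUM2 was 42.9% to 63.3%.

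**Figure D1:**
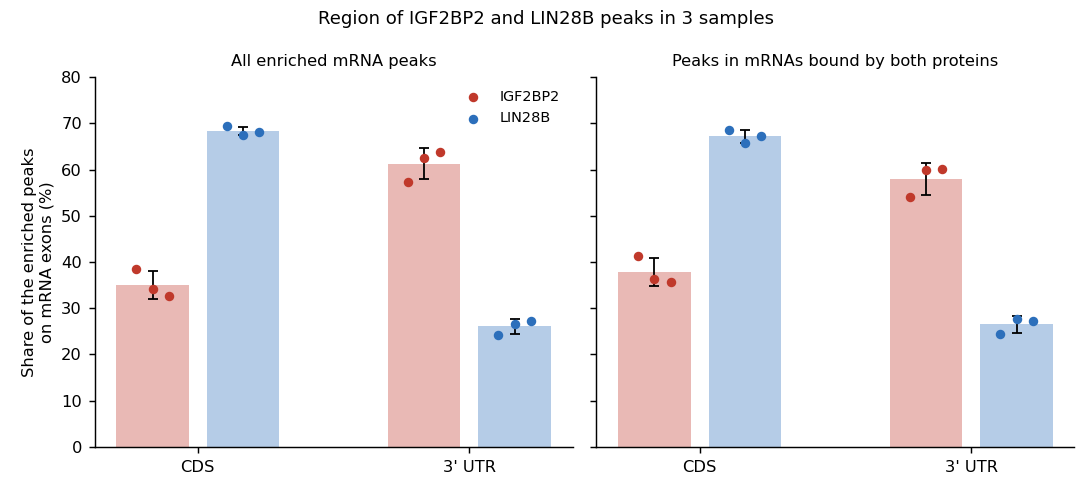
Share of the enriched mRNA peaks (%) in the CDS and in the 3′ UTR for IGF2BP2 (red) and LIN28B (blue), over all mRNAs (left) and over the mRNAs bound by both proteins in a sample (right). Points are the 3 samples in the order of their numbers, bars the means and error bars SDs. IGF2BP2 averaged 61.3% in the 3′ UTR and LIN28B 68.3% in the CDS, and no point of one protein reaches those of the other in either panel.

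The same difference was present inside the same mRNAs. In mRNAs bound by both proteins, 54.0%, 59.96% and 60.1% of the IGF2BP2 peaks and 24.4%, 27.8% and 27.3% of the LIN28B peaks were in the 3′ UTR, a difference of 31.6 percentage points ± 1.71 (SD, n = 3). Of the 1284 mRNAs bound by both in a sample on average, 237 ± 47.9 had IGF2BP2 peaks in the 3′ UTR and not the CDS together with LIN28B peaks in the CDS and not the 3′ UTR. The opposite arrangement was found for 29 ± 2.65 mRNAs.

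Along the coding sequence, IGF2BP2 peaks lay nearer to the stop codon than LIN28B peaks. The median position of IGF2BP2 peaks was 57.1%, 56.9% and 53.4% of the CDS length, and that of LIN28B peaks 48.4%, 48.8% and 47.7%. The difference was 7.49 percentage points ± 1.63 (SD, n = 3; exact sign-flip p = 0.25). The last of 4 equal parts of the CDS held 30.1% ± 1.14 of the IGF2BP2 CDS peaks and 23.3% ± 0.187 of those of LIN28B. Within the 3′ UTR the median positions were close. The median distance from the stop codon was 602, 629 and 609 nt for IGF2BP2 and 622, 626 and 614 nt for LIN28B, a difference of -7.33 nt ± 11.7 (SD, n = 3; exact sign-flip p = 0.5). In share of the 3′ UTR length the medians were 37.2% ± 0.324 and 37.6% ± 0.556. Right behind the stop codon LIN28B had the larger share in each sample, since 12.7%, 9.64% and 9.56% of the IGF2BP2 peaks of the 3′ UTR and 14.7%, 12.9% and 12.2% of those of LIN28B lay within 100 nt of it, a difference of -2.62 percentage points ± 0.656 (SD, n = 3; exact sign-flip p = 0.25). With all merged peaks in place of the enriched ones, the difference in median distance was 99.7 nt, IGF2BP2 being the farther.

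**Figure D2:**
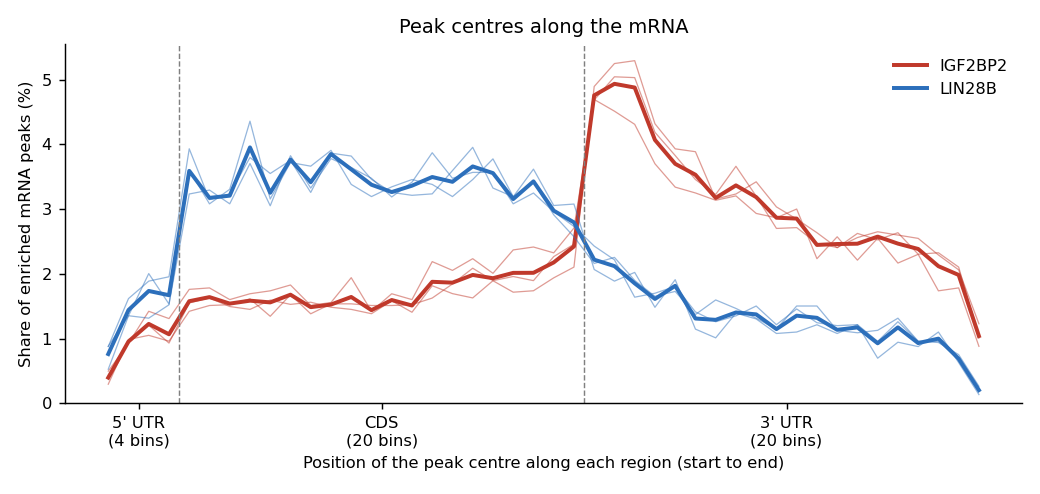
Share of all enriched mRNA peaks (%) by the position of the peak centre along the 5′ UTR (4 bins), CDS (20 bins) and 3′ UTR (20 bins), each region scaled to its own length. Thick lines are the means of 3 samples and thin lines the samples, with IGF2BP2 in red and LIN28B in blue. The LIN28B line is the higher along the CDS and the IGF2BP2 line the higher from the stop codon on.

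The bases around the peaks differed in opposite directions. In 51-nt windows centred on CDS peaks, guanine made up 23.2%, 22.8% and 22.2% at IGF2BP2 peaks and 31.8%, 31.4% and 30.6% at LIN28B peaks. Cytosine made up 30.8%, 30.1% and 31.2% at IGF2BP2 peaks and 22.7%, 22.4% and 22.4% at LIN28B peaks. Neither was a property of the whole coding sequence alone. The complete CDS of the same genes averaged 25.6% guanine for IGF2BP2 and 27.5% for LIN28B, so that LIN28B windows exceeded their own CDS by 3.77 percentage points ± 0.458 (SD, n = 3) in guanine and IGF2BP2 windows exceeded theirs by 4.68 ± 0.359 in cytosine. In the 3′ UTR the LIN28B excess of guanine was 6.10 ± 0.374 and the IGF2BP2 excess of cytosine 4.26 ± 0.471. The difference in guanine, IGF2BP2 minus LIN28B, was -8.58 percentage points ± 0.173 in the CDS and -10.7 ± 0.665 in the 3′ UTR, and that in cytosine 8.17 ± 0.561 and 4.12 ± 0.126 (exact sign-flip p = 0.25 for each). Adenine in CDS windows was 27.6% ± 1.31 and 27.0% ± 0.829, and its difference of 0.61 ± 0.631 was not larger than the spread.

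**Figure D3:**
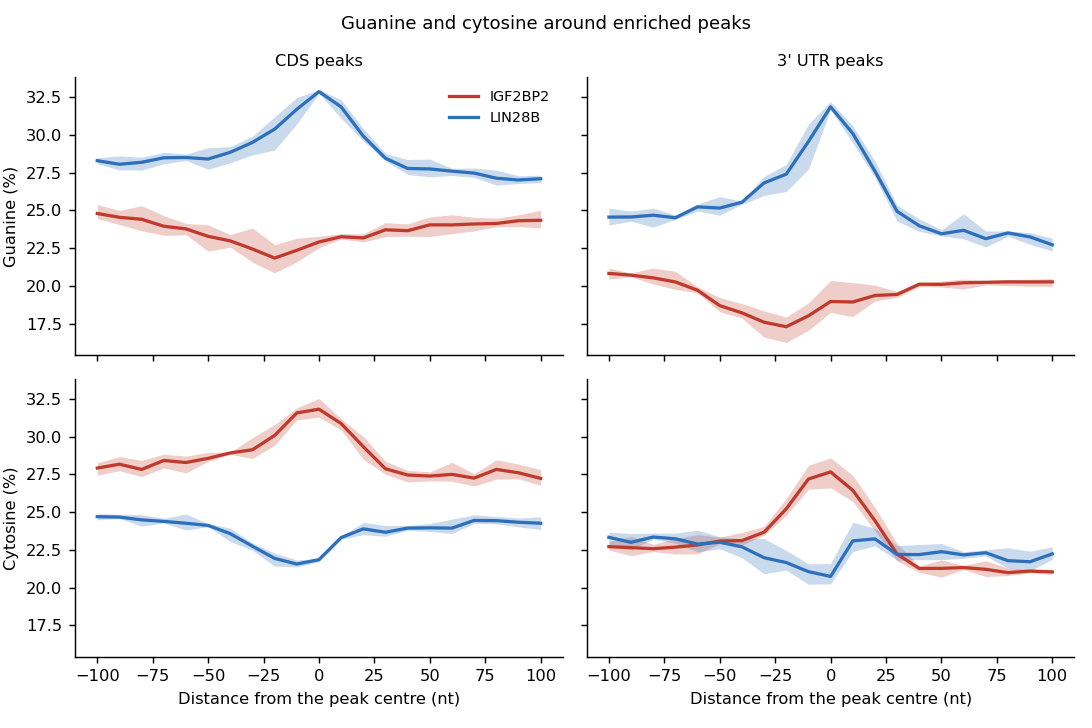
Guanine (top, %) and cytosine (bottom, %) by distance from the peak centre (nt, 10-nt bins) at CDS peaks (left) and 3′ UTR peaks (right) of IGF2BP2 (red) and LIN28B (blue). Lines are means and bands the range of 3 samples. At LIN28B peaks guanine rises from 28.3% at -100 nt to 32.9% at the centre in the CDS and from 24.6% to 31.9% in the 3′ UTR, and at IGF2BP2 peaks cytosine rises from 27.9% to 31.8% and from 22.7% to 27.7%.

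The 4-base element of the let-7 precursors followed LIN28B in both regions. GGAG was present in 50.0%, 48.2% and 46.3% of the LIN28B windows in the CDS and in 23.2%, 22.7% and 22.4% of the IGF2BP2 windows. All possible windows in the same coding sequences held it at 33.7% for LIN28B and 28.2% for IGF2BP2. In the 3′ UTR, GGAG was present in 42.8%, 40.8% and 39.9% of the LIN28B windows, against 22.6% over their whole 3′ UTRs, and in 14.9%, 16.6% and 13.6% of the IGF2BP2 windows, against 17.5%. The difference, IGF2BP2 minus LIN28B, was -25.4 percentage points ± 1.43 (SD, n = 3) in the CDS and -26.1 ± 1.85 in the 3′ UTR. GNGAT or GNGAC, another element described for LIN28 proteins, showed the same direction with 40.1% ± 0.395 and 20.6% ± 0.822 in the CDS and 39.5% ± 0.368 and 17.0% ± 0.885 in the 3′ UTR, and GAAG with 46.9% ± 2.06 and 29.7% ± 4.52 and with 33.9% ± 1.01 and 16.3% ± 1.09. TGTG was in 28.3% ± 1.76 of the LIN28B windows in the 3′ UTR, near the 25.7% of their whole 3′ UTRs, and in 15.9% ± 2.61 of the IGF2BP2 windows, below the 23.8% of theirs.

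The elements described for IGF2BP proteins ran the other way. CATA, CATC or CATT was present in 44.6%, 47.9% and 48.6% of the IGF2BP2 windows in the CDS and in 30.7%, 32.0% and 32.3% of the LIN28B windows, and in the 3′ UTR in 48.8%, 52.4% and 54.1% against 28.9%, 30.4% and 32.8%. The difference was 15.4 percentage points ± 1.27 (SD, n = 3) in the CDS and 21.1 ± 1.01 in the 3′ UTR. The exact sign-flip p was 0.25 for these and for the GGAG differences. Whole coding sequences held these CAT elements at 39.9% for IGF2BP2 and 38.01% for LIN28B, and whole 3′ UTRs at 44.01% and 39.7%. In both regions IGF2BP2 windows were above their own share and LIN28B windows below theirs. The difference between the proteins was therefore not an IGF2BP2 excess alone. CACA stood at 31.2% ± 0.788 of the IGF2BP2 CDS windows, where their whole coding sequences gave 19.6%, and at 16.3% ± 0.602 of the LIN28B windows, where theirs gave 17.1%. In the 3′ UTR it stood at 30.1% ± 2.66 of the IGF2BP2 windows and 19.6% ± 1.57 of the LIN28B windows. The whole 3′ UTRs gave 17.4% for each, so there LIN28B windows were also above their own share. GGAC, the core of the consensus for N6-methyladenosine, stood near its share in whole regions at IGF2BP2 peaks, with 18.1% ± 1.05 in the CDS against 18.9% over whole coding sequences, and 11.7% ± 0.586 against 11.1% in the 3′ UTR. Motifs were searched on the mRNA strand, GGAGA is part of the GGAG count, and a match describes the window only.

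Among all tetramers, ranked by their share of windows over their share in the same regions, CACA and the shifted ACAC took the first 2 places for IGF2BP2 in the CDS (1.61 and 1.55 times) and in the 3′ UTR (1.75 and 1.86 times). The next places went to C-rich tetramers, CCAC among them. For LIN28B, GGAG ranked second in the CDS at 1.43 times, after GATA at 1.49 times, and second in the 3′ UTR at 1.86 times, with GAGG and its shifted form AGAG among the 10 highest in both regions. These ranks are a description with no test.

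About as many mRNAs were bound by both proteins as by each alone. In replicates 1, 2 and 3, 954, 1478 and 1419 mRNAs held enriched peaks of both, 793, 993 and 1292 of IGF2BP2 alone and 1210, 1294 and 979 of LIN28B alone. The shared mRNAs were 54.6%, 59.8% and 52.3% of the IGF2BP2 lists and 44.1%, 53.3% and 59.2% of the LIN28B lists. Between samples, 56.3% to 87.4% of an IGF2BP2 list and 65.6% to 84.1% of a LIN28B list were found again for the same protein, so single-sample lists also varied within a protein. These shares depend on list length. The lowest, 56.3%, was for the 2711 IGF2BP2 mRNAs of replicate 3 sought among the 1747 of replicate 1, and the reverse gave 87.4%. Over all 3 samples, 693 mRNAs were bound by both proteins every time, 290 by IGF2BP2 every time and LIN28B never, and 398 the reverse. Their median peak reads, summed over the 6 libraries, were 408, 129 and 81, so these sets differed in read number too. How far read number sets the overlap was not tested. The median 3′ UTR was 1709 nt in the 290 and 842 nt in the 398, and 1019 nt over all 19688 reference transcripts, while the median CDS was 1130 nt and 1562 nt. Most reference transcripts were not bound. The median 3′ UTR was 1416.5 nt over the 4614 mRNAs bound by either protein in any sample, and 1546 nt over the 693.

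In most mRNAs bound by both proteins no sites overlapped. An overlap of at least 1 nt on the same strand was found for 14.1%, 12.8% and 11.3% of the IGF2BP2 peaks and for 14.4%, 15.2% and 18.8% of the LIN28B peaks. Of the mRNAs bound by both, 34.8%, 32.5% and 34.9% held an overlapping site. By region, LIN28B peaks in the 3′ UTR overlapped IGF2BP2 at 23.1% ± 3.03 (SD, n = 3), and IGF2BP2 peaks in the 3′ UTR overlapped LIN28B at 8.07% ± 1.05. In the CDS the order was the other way, with 12.8% ± 1.76 of the LIN28B peaks and 19.2% ± 1.46 of the IGF2BP2 peaks. In each region the larger share belonged to the protein with fewer peaks. The 3′ UTR held 1428 LIN28B and 4398 IGF2BP2 peaks per sample on average, and the CDS 3719 and 2439.

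The 2 proteins were then compared gene by gene through the reads of all merged peaks on mRNA exons, scaled to the library (RPM, reads per 1000000 reads in such peaks), for the 2051 genes with a peak in all 6 libraries. By limma on log2(RPM + 10), with the sample as a block and p-values adjusted over all 2051 genes, 399 genes (19.5%) were higher in IGF2BP2 and 389 (19%) higher in LIN28B at an adjusted p below 0.05, and 398 and 388 of these had the same sign in all 3 samples. The fold changes below are on this log2 scale, which understates those of genes with few reads. The genes higher in IGF2BP2 had a median 3′ UTR of 2038 nt and those higher in LIN28B one of 777 nt, against 1506 nt over all genes tested. In the genes higher in IGF2BP2 a median of 77.7% of the IGF2BP2 reads were in the 3′ UTR, and in those higher in LIN28B a median of 92.8% of the LIN28B reads were in the CDS. Over all genes tested these medians were 54.9% and 76.4%. Reads from near-identical copies, such as the globins HBA1 and HBA2 or HBG1 and HBG2, ribosomal protein pseudogenes, tubulins and histones, may be split or lost in mapping, and the values of those genes are uncertain.

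**Figure D4:**
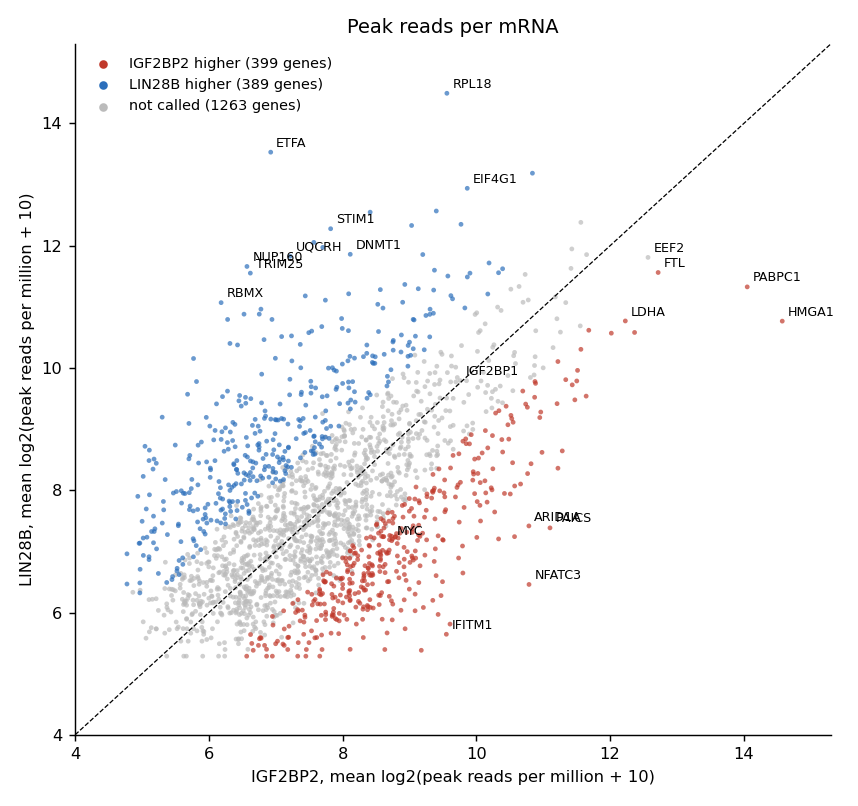
Mean log2(peak RPM + 10) of 3 samples for IGF2BP2 (x axis) and LIN28B (y axis), 1 point per mRNA with a peak in all 6 libraries, with equality as a dashed line. Of the 2051 genes, 399 are called higher in IGF2BP2 (red), 389 higher in LIN28B (blue) and 1263 are not called (grey).

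HMGA1 and NFATC3 were among the 10 mRNAs with the largest differences toward IGF2BP2. HMGA1 (chr6:34236873-34246231, plus strand), which encodes an architectural chromatin protein, had 26505, 27762 and 19731 RPM in the IGF2BP2 libraries and 1760, 1512 and 1951 in those of LIN28B. All IGF2BP2 values were above all LIN28B values, the difference was 3.81 ± 0.36 (SE; adjusted p = 0.000337), and 98.9% of its IGF2BP2 reads were in the 3′ UTR. NFATC3 (chr16:68085370-68229259, plus strand), a transcription factor of calcium signalling, had the largest difference with 1817, 1873 and 1596 against 37.5, 125 and 96.0 (4.33 ± 0.41, adjusted p = 0.000337), and its IGF2BP2 reads were 96.5% in the CDS. The purine synthesis enzyme PAICS had 1807, 2206 and 2625 RPM against 112, 317 and 107 (3.72 ± 0.42, adjusted p = 0.000629), and every IGF2BP2 read in its exonic peaks lay in the 3′ UTR. The interferon-induced membrane protein IFITM1 (3.91), the phosphatidic acid synthase AGPAT1 (3.796), the chromatin reader TRIM24 (3.79), WBP2 (3.46), the BAF remodelling subunit ARID1A (3.37), WAC (3.33) and the autophagosome protein MAP1LC3B (3.24) completed the 10 largest. These mRNAs were not all bound in the 3′ UTR, since NFATC3, TRIM24, ARID1A and WAC had 76.4% to 96.5% of their IGF2BP2 reads in the CDS.

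ETFA, RPL18 and STIM1 were among the 10 mRNAs with the largest differences toward LIN28B. ETFA (chr15:76215353-76311469, minus strand), a subunit of the electron transfer flavoprotein of mitochondria, had 11685, 15288 and 9244 RPM in the LIN28B libraries and 73.5, 131 and 142 in those of IGF2BP2, a difference of -6.61 ± 0.38 (SE; adjusted p = 0.000112), with all reads of both proteins in the CDS. RPL18 (chr19:48615331-48619178, minus strand), of the large ribosomal subunit, had 27179, 15182 and 29717 against 861, 705 and 680 (-4.93 ± 0.37, adjusted p = 0.00022). STIM1, the calcium sensor of the endoplasmic reticulum, had 6504, 3758 and 4980 against 284, 166 and 214 (-4.46 ± 0.34, adjusted p = 0.00022), and its LIN28B reads were all in the 3′ UTR. The ubiquitin ligase TRIM25 (-4.93) also had 99.7% of its LIN28B reads in the 3′ UTR. The nuclear pore protein NUP160 (-5.09), the RNA-binding protein RBMX (-4.89), the complex III subunit UQCRH (-4.61), the chaperonin subunit CCT7 (-4.51), the ribosomal protein RPS21 (-4.48) and the proteasome subunit PSMD2 (-4.38) had 94.3% to 100% of their LIN28B reads in the CDS.

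Fitted by region, the reads gave opposite balances. Each fit kept the scaling to all mRNA exon peak reads of the library. The region shares of the libraries therefore enter both fits, and the counts are not independent of those shares. The median log2 difference was -0.65 in the CDS fit and 0.56 in the 3′ UTR fit. Over the CDS peak reads of 1094 genes, 72 (6.58%) were higher in IGF2BP2 and 336 (30.7%) in LIN28B, whereas over the 3′ UTR peak reads of 651 genes, 261 (40.1%) were higher in IGF2BP2 and 77 (11.8%) in LIN28B (limma, adjusted p below 0.05 within each fit). Of the 222 genes in both fits, 167 (75.2%) had a higher log2 difference in the 3′ UTR than in the CDS. In 35 of them the CDS reads were higher in LIN28B and the 3′ UTR reads higher in IGF2BP2, in 1 the reverse was called, and in 8 and 11 both regions leaned to IGF2BP2 and LIN28B. This fit by region was added after the data were seen.

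The elongation factor EEF2 and the glycolytic enzyme LDHA had the most reads of those 35. The EEF2 3′ UTR had 5253, 4935 and 4552 IGF2BP2 RPM against 400, 627 and 618 of LIN28B (3.17 ± 0.35, limma adjusted p = 0.000192), while its CDS had 1670, 1209 and 680 against 2909, 2780 and 3444 (-1.44 ± 0.46, adjusted p = 0.0288). Summed over the mRNA, EEF2 was not called (0.76 ± 0.35, adjusted p = 0.118). The LDHA 3′ UTR had 4097, 4104 and 5613 against 275, 343 and 661 (3.49 ± 0.35, adjusted p = 0.000192), and its CDS 84.0, 161 and 178 against 986, 1413 and 1461 (-3.14 ± 0.42, adjusted p = 0.000313). LARP1, which binds mRNAs of ribosomal proteins, had 3′ UTR and CDS differences of 2.02 ± 0.46 and -2.91 ± 0.50 (limma adjusted p = 0.00574 and 0.00113), the protein kinase PRKCB 2.61 ± 0.34 and -2.94 ± 0.55 (0.000441 and 0.00187), and the histone chaperone NAP1L1 1.795 ± 0.36 and -1.25 ± 0.42 (0.00327 and 0.0359).

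Of the mRNAs bound by a single protein, those with the most reads are described here, and the other protein could still have peaks below the limits. PLBD2, a lysosomal protein, had 2049, 1289 and 1010 RPM in IGF2BP2 and none, none and 74.6 in LIN28B, with all IGF2BP2 reads in the 3′ UTR. The granzyme B inhibitor SERPINB9 had 620, 519 and 832 against none, none and 32.0. TMEM101 had 3321, 2344 and 2207 RPM in LIN28B, all in the CDS, and no IGF2BP2 peak in any sample. The maintenance DNA methyltransferase DNMT1 had 6504, 2879 and 2719 in LIN28B against 242, 297 and 265 (-3.75 ± 0.41, limma adjusted p = 0.000548), and the isoprenoid enzyme FDPS 2397, 2080 and 1322 against 94.5, 106 and 93.9 (-4.13 ± 0.36, adjusted p = 0.000312).

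Of 31 genes of the let-7 and IGF2BP axis, 13 were tested, 6 (46.2%) were higher in IGF2BP2 and 1 (7.69%) in LIN28B, beside 19.5% and 19% of all genes tested, with a median difference of 0.95 where all 2051 genes had 0.0057. Beside HMGA1 the kinase CDK6 had 1145, 927 and 1110 RPM in IGF2BP2 against 225, 291 and 299 (1.93 ± 0.35, limma adjusted p = 0.00402), and the cyclin CCND2 788, 1158 and 1049 against 262, 304 and 331 (1.69 ± 0.34, adjusted p = 0.00622). The transcription factor MYC was also higher in IGF2BP2 (1.56 ± 0.41, limma adjusted p = 0.0179). The LIN28B mRNA itself had 273, 206 and 207 RPM in the IGF2BP2 libraries and 49.9, 59.4 and 96.0 in the LIN28B libraries (1.64 ± 0.38, adjusted p = 0.0103), with 94.7% of the IGF2BP2 reads in the 3′ UTR. The ubiquitin-conjugating enzyme CDC34 was higher in LIN28B (-1.13 ± 0.36, adjusted p = 0.0372). The calls of MYC, LIN28B and CDC34 were lost when genes with a peak in at least 3 of the 6 libraries were tested.

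Of the IGF2BP family, the IGF2BP1 and IGF2BP2 mRNAs were bound by both proteins. IGF2BP1 had 830, 786 and 965 RPM in IGF2BP2 and 811, 918 and 906 in LIN28B, and its difference of -0.034 ± 0.34 was not called (limma adjusted p = 0.943). The IGF2BP2 mRNA had 315, 141 and 240 against 62.4, 225 and 245 (0.50 ± 0.53, adjusted p = 0.484). Both transcripts were read mainly in the 3′ UTR by either protein, at 72.0% to 98.7% of their reads. IGF2BP3 was bound by IGF2BP2 in 2 samples and by LIN28B in none, and was not tested because replicate 1 of LIN28B held no peak.

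Of 24 known IGF2BP targets, 15 were tested, 5 (33.3%) were higher in IGF2BP2 and none in LIN28B, beside 19.5% and 19% of all genes, with a median of 0.27. PABPC1, the cytoplasmic poly(A)-binding protein, had 23017, 16814 and 12612 RPM in IGF2BP2 against 2871, 2358 and 2474 in LIN28B (2.72 ± 0.35, limma adjusted p = 0.00107). MARCKSL1 (1.86), LDHA (1.46), the proliferation marker MKI67 (1.33) and the translation repressor EIF4EBP2 (1.14) were the others, and LDHA, MKI67 and EIF4EBP2 lost their calls with genes in at least 3 of the 6 libraries. ACTB, with 2406, 2674 and 2661 against 2472, 2146 and 1845, did not pass the test (0.27 ± 0.35, adjusted p = 0.566).

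Over all genes tested, 19% were higher in LIN28B and 19.5% in IGF2BP2, and the median 3′ UTR was 1506 nt. Among tested members it was 87 nt for cytoplasmic ribosomal proteins, 1721 nt for initiation and elongation factors, 298.5 nt for the respiratory chain and 482 nt for chaperones. For the let-7 and IGF2BP axis above it was 3874 nt, and for the cyclins and cell-cycle kinases below 1157 nt. Whether 3′ UTR length accounts for the differences between lists was not tested. Of 52 cytoplasmic ribosomal proteins tested, 24 (46.2%) were higher in LIN28B and RPL35A and RACK1 (3.85%) in IGF2BP2, with a median of -0.98. RPS19 had 5418, 5475 and 4585 RPM in LIN28B against 557, 478 and 508 (-3.30 ± 0.34, limma adjusted p = 0.000531). Of 30 initiation and elongation factors, 10 (33.3%) were higher in LIN28B, led by the helicase EIF4A1 (-3.29 ± 0.37) and the scaffold EIF4G1 (-3.08 ± 0.35), and 4 (13.3%) in IGF2BP2, with a median of -0.17 that was 0.57 with enriched peaks only. Of 28 respiratory chain subunits, 11 (39.3%) were higher in LIN28B, with NDUFV1 (-3.64 ± 0.35) after UQCRH, and 5 (17.9%) in IGF2BP2, led by NDUFA4 (2.37 ± 0.38). Of 16 cytosolic and mitochondrial chaperones, 9 (56.3%) were higher in LIN28B, among them CCT7, CCT4 and TRAP1, and HSPB1 alone in IGF2BP2, with a median of -1.24, the lowest of the lists.

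**Figure D5:**
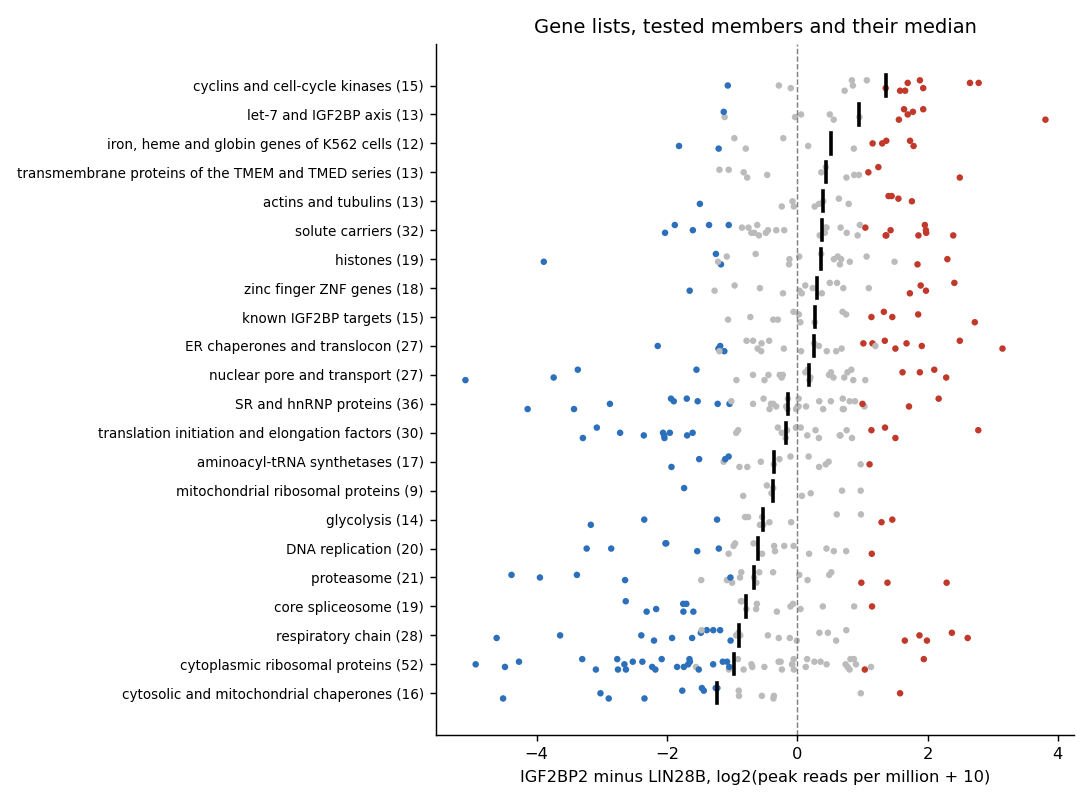
Differences, IGF2BP2 minus LIN28B, in log2(peak RPM + 10) for the tested members of each gene list with at least 5 of them (number in brackets). Points are genes, red or blue where limma called them higher in IGF2BP2 or LIN28B and grey where it did not, and the black bar is the median. Medians run from -1.24 for chaperones to 1.36 for cyclins and cell-cycle kinases.

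Among 36 SR and hnRNP proteins tested, 9 (25%) were higher in LIN28B, near the 19% over all genes, and 3 (8.33%) in IGF2BP2, where all genes had 19.5%, with a median of -0.15. Of 19 core spliceosome genes, 7 (36.8%) were higher in LIN28B, led by SF3B1 (-2.63 ± 0.37), and 1 in IGF2BP2. Of 20 replication genes, 6 (30%) were higher in LIN28B, with the helicase subunit MCM2 at -3.23 ± 0.42, and the ribonucleotide reductase subunit RRM2 alone in IGF2BP2. Of 14 glycolysis genes, 3 (21.4%) were higher in LIN28B, namely HK1 (-3.17 ± 0.34), ENO1 (-2.35 ± 0.34) and PKM. LDHA and PGK1 (14.3%) were higher in IGF2BP2. Both shares were near the 19% and 19.5% of all genes, and the median was -0.53. For PGK1 and LDHA the CDS reads alone went the other way, as given for LDHA above and at -1.81 (limma adjusted p = 0.0201) for PGK1, and both lost their calls with genes in at least 3 of the 6 libraries.

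Of 15 cyclins and cell-cycle kinases tested, 8 (53.3%) were higher in IGF2BP2, where all genes had 19.5%, and CCNB1 alone in LIN28B, where all genes had 19%, with a median of 1.36, the highest of the lists. The mitotic kinase PLK1 had 662, 629 and 363 RPM in IGF2BP2 against 112, 66.0 and 42.7 (2.78 ± 0.35, limma adjusted p = 0.000941), with 81.3% of the IGF2BP2 reads in the CDS. Of 32 solute carriers, 9 (28.1%) were higher in IGF2BP2, led by the lactate transporter SLC16A1 (2.39 ± 0.36), and 5 (15.6%) in LIN28B, shares near those of all genes, with a median of 0.38 that was -0.42 with enriched peaks only. The list of chaperones and translocon genes of the endoplasmic reticulum also holds the trafficking receptors TMED2 and KDELR1. Of its 27 tested genes, 8 (29.6%) were higher in IGF2BP2, among them TRAM1 (3.15 ± 0.46) and TMED2 (2.49 ± 0.37), and 4 (14.8%) in LIN28B, with SEC63 at -2.14 ± 0.39 and a median of 0.26. TMED2 is counted again in the TMEM and TMED list below. Of 12 iron, heme and globin genes, 5 were higher in IGF2BP2, among them the ferritins FTH1 and FTL, and 2 in LIN28B, and FTL lost its call with genes in at least 3 of the 6 libraries.

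The remaining lists are given by their counts, beside 19.5% and 19% of all genes called higher in IGF2BP2 and LIN28B. The list of actins and tubulins also holds actin-binding proteins. Of its 13 tested genes, 4 were higher in IGF2BP2, namely TUBA1B (1.76 ± 0.35), TUBB and the actin-binding CFL1 and PFN1. TUBB6 was higher in LIN28B, a call lost with genes in at least 3 of the 6 libraries. Of 21 proteasome genes, 3 were higher in IGF2BP2 and 5 in LIN28B, and of 27 nuclear pore and transport genes 4 in each direction, from NUP160 to NUP214 (2.103 ± 0.35). The aminoacyl-tRNA synthetases had 1 and 4 of 17, the histones 2 and 3 of 19, the ZNF zinc finger genes 4 and 1 of 18, the TMEM and TMED genes 3 and 0 of 13, and the mitochondrial ribosomal proteins 0 and 1 of 9.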

How the data were processed

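Reads of the pooled ABC libraries were split by antibody barcode, trimmed (cutadapt 2.8), aligned to GRCh38 (STAR 2.7.6), freed of PCR duplicates by molecular identifiers and given peaks by CLIPper, per sample, by the authors. They deposited CLIPper peaks with a p-value and, for replicate 2, a display score, and merged peaks with −log10 P and log2 fold over an external background. The −log10 P and log2 fold deposited over the other libraries of the tube for replicate 3 served as an alternative, and the remaining columns deposited, such as chi-squared values, were not used.

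Whole reads per peak were recovered from the fold and P, with the background at 1 read or more, and equalled the reads in the authors' peak names for 99.1% to 99.2% of the peaks of replicates 1 and 3. A read in touching peaks counts in each. Peak centres were placed on MANE Select or Ensembl canonical transcripts of GENCODE release 44 (the authors used release 35), without the mitochondrial genome. Overlaps are per sample and strand. Shares were compared by exact two-sided sign flips over the 3 samples. Gene reads were fitted with limma 3.58.1 in R 4.3.3 (Benjamini-Hochberg, 0.05), which was tested on simulated data. The pair is the same lysate, and deviations of same-numbered libraries correlated weakly, at 0.0732 to 0.0889 over 2051 genes, and all other pairs below 0. The deviations are from each protein's own mean over the 3 samples. This pushes the other pairs below 0 where same-numbered pairs are above it, so their sign adds nothing.

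The members, gene lists and tests were chosen with earlier results of these data known. Genes were named by a rule: the 10 largest differences in each direction, the 5 with most reads among those bound by both or by a single protein, the let-7 and IGF2BP lists, and up to 4 members of each other list with the lowest adjusted p; LARP1, PRKCB, NAP1L1 and others named only by a count were added after their values were seen. Some genes the rule names are not reported here. The alternatives were other limits, equal list lengths, other regions, windows, overlaps, filters and pseudocounts, no block and leaving out each sample.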

Additional observations from a re-analysis of the deposited data

How the results depend on the processing

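The differences in 3′ UTR and CDS share, CDS position, guanine, cytosine, GGAG and CAT elements kept their direction under each alternative, the other shares and motifs were not run under them, and the distance from the stop codon, which was within the spread of the samples, reversed, to 12.7 nt at P below 1e-05 and fold above 16 and 99.7 nt with all merged peaks. At the stricter limits the differences were 39.2 points (3′ UTR), -37.3 (CDS), 10.0 (CDS position), -9.23 and 8.84 (guanine and cytosine, CDS), -11.6 and 4.90 (3′ UTR), -28.0 and -28.2 (GGAG) and 17.2 (CAT elements, CDS), with 653 mRNAs bound by both. With all merged peaks they were 22.7, -21.1, 4.12, -5.96 and 5.39, -8.91 and 2.46, -18.3 and -21.6, and 10.3 and 17.7 (CAT elements), with 3486 mRNAs bound by both and overlaps of 10.6% and 19.99% of the IGF2BP2 and LIN28B peaks. With the same number of peaks from both libraries, the CDS position differed by 9.30 points, the stop codon distance by -25.3 nt and 3′ UTR cytosine by 4.33, and with regions by priority the latter by 3.99. Windows of 31 nt gave -9.23 and 9.12 (CDS), -11.8 and 5.38 (3′ UTR), -20.01 and -19.4 (GGAG) and 13 and 18.9 (CAT elements). Counting an overlap only from 0.5 of the shorter peak left 11.3% of the IGF2BP2 peaks.

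In replicate 3 alone, over the other libraries of the tube, the differences were 45.1 (3′ UTR), -43.9 (CDS), -94.5 nt, -13.6 and 10.3, -13.2 and 4.49, -36.8 and -31.4, and 32.0 and 30.0, with 482 mRNAs bound by both and 0.00% of the peaks of either protein overlapping, since that background holds the reads of the other protein. Leaving out 1 replicate gave 34.5 to 36.3 (3′ UTR), -34.4 to -32.2 (CDS), 6.88 to 8.41 (CDS position), -12.5 to -1 nt, -8.68 to -8.52 and 7.86 to 8.4004 (CDS bases), -11.0 to -10.4 and 4.08 to 4.20 (3′ UTR bases), -26.2 to -24.7 and -27.1 to -25.2 (GGAG), 14.9 to 16.1 and 20.6 to 21.6 (CAT elements), 1186.5 to 1448.5 mRNAs bound by both, and overlaps of 12.04% to 13.4% and 14.8% to 17.0%.

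For the gene-level reads, no replicate block gave 396 genes higher in IGF2BP2 and 383 in LIN28B in place of 399 and 389 with the paired fit, and 35.2 points for the 3′ UTR share, the unpaired exact p being 0.1, the smallest it can give. Leaving out 1 replicate gave 246 to 348 and 284 to 360, with 246 higher in IGF2BP2 without replicate 3 and 263 without replicate 2. Enriched peaks only gave 209 and 147 of 693 genes, and genes with a peak in at least 3 of 6 libraries 1020 and 582 of 5651, which put 63.7% of the calls on IGF2BP2 where it was 50.6% and kept 336 of the 788 calls, those of LDHA, PGK1, FTL, TUBB, MYC, MKI67, CDC34, TMED5 and H2BC21 being among the lost. Chosen after seeing the data, the joining of touching peaks into 1 site turned none of the shares and differences, and the reads of 1 region gave 72 in IGF2BP2 (CDS) and 261 and 77 (3′ UTR), and lists with a median above 0 numbered 2 in the CDS against 11 of 22 (10 to 11 without 1 replicate). Of the genes named by the rule, these turned sign with a call in either fit: in the CDS alone FTL (-0.023), EEF2 (-1.44), LDHA (-3.14), PGK1 (-1.81), TUBB (-0.97), SLC16A1 (-0.67), TMED5 (-0.54) and H2BC21 (-0.19), and in the 3′ UTR alone CDC34 (0.17), EIF4B (1.23) and RAN (0.90). Of all called genes, 412 were tested with CDS reads alone and 35 of these had the other sign. With 3′ UTR reads alone it was 13 of 246. List medians turned for mitochondrial ribosomal proteins (0.044 and 0.072, at 3 of 6 libraries and at a mean of 100 RPM), initiation and elongation factors (0.57), solute carriers (-0.42) and ZNF genes (-1.51) with enriched peaks only, and histones (-0.78 without replicate 1, 0.93 without replicate 2). Of 1375 comparisons for 120 named genes under the other settings, 1291 kept their status, called or not called, 76 lost a call and 8 gained one. None changed sign with a call in either fit, and a sign change without any call was counted as status kept. The number of reads limits the genes tested to those with peaks in all libraries, and a gene without a peak is not shown to be unbound. The causes of these shifts were not tested.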
